A study of Mus musculus with 6 samples.

Results

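Genes of the machinery that moves chloride, bicarbonate and water out of the pancreatic epithelium were compared between the pancreas of OCaR1-/- mice and of wild-type mice. They were chosen by name, from a list of 9 genes, and 7 of these were analysed among the 12016 genes of the authors' table: the water channel genes Aqp1, Aqp8 and Aqp12, the chloride channel gene Ano1, the cotransporter gene Slc12a2 and the potassium channel genes Kcnq1 and Kcnn4. The other 2, Cftr and Slc4a4, were not analysed here. All 7 were tested, as were 11478 genes in all.

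RNA of the whole pancreas was sequenced from 3 male wild-type mice (C57Bl6/N) and 3 male OCaR1-/- mice, all 3 weeks old and untreated. The strain field of the labels reads C56Bl6/N for both genotypes. Tmem63a encodes OCaR1, a membrane protein of acidic organelles; the pairing of the names comes from background knowledge, not from the labels. How the allele was made, and in which cells it acts, is not stated in the labels. For each genotype the authors' table holds 1 FPKM value (fragments per kilobase, adjusted for transcript length and library size), which combines the 3 mice, so no value of a single mouse and no SD can be given. Depth is unknown for the same reason. The targeted gene was lower in OCaR1-/- mice, with Tmem63a at 4.91 FPKM against 18.3 FPKM in wild type (q = 0.00152 by the authors' deposited table).

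Pancreatic fluid is made in steps that depend on each other. In acinar cells a cotransporter loads chloride across the basolateral membrane, potassium channels keep the cell negative inside, and secretagogues that raise calcium open a chloride channel in the apical membrane. Sodium follows between the cells and water follows through aquaporins. Duct cells then add bicarbonate, using basolateral bicarbonate cotransport, carbonic anhydrase, apical anion exchange and the channel Cftr. FPKM is scaled to transcript length, so levels of different genes may be set side by side.

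Of the 7 genes, 3 passed the authors' Cuffdiff test at q under 0.05. Aqp1 rose, and Aqp8 and Kcnq1 fell. Across all tested genes 7.54% passed, 4.20% in the upward and 3.35% in the downward direction. Among genes with at least 5 FPKM in either genotype, which include all 3 called genes, 8.53% were called, 3.93% higher and 4.60% lower. The remaining 4 genes were not called, and each also had an unadjusted p above 0.05 by the authors' deposited table. Kcnn4 had the higher value in the knockout, and Ano1, Aqp12 and Slc12a2 the lower. The median log2 fold change of the 7 (knockout over wild type) was -0.10, against -0.03 over all tested genes. A gene is called changed below where it passed the q threshold, and its fold change is the ratio of the 2 deposited FPKM values.

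The 3 aquaporin genes are shown by the 300 bases around their RefSeq start (GRCm38.p6, 250 bases before to 50 after it), because among the 7 genes they hold the highest level (Aqp12), the largest rise (Aqp1) and the largest fall (Aqp8). All 3 are read on the plus strand, at chr6:55336049-55336348 for Aqp1, chr7:123462044-123462343 for Aqp8 and chr1:93006084-93006383 for Aqp12. Capitals mark E-boxes (CANNTG, a palindrome in its fixed letters, searched on both strands), the sites that basic helix-loop-helix factors such as the acinar factor Ptf1a recognise.
Aqp1: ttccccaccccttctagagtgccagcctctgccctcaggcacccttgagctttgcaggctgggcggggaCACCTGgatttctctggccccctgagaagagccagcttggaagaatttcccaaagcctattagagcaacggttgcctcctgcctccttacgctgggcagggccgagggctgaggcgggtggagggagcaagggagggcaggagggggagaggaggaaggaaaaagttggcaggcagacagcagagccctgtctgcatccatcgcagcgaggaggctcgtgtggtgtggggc
Aqp8: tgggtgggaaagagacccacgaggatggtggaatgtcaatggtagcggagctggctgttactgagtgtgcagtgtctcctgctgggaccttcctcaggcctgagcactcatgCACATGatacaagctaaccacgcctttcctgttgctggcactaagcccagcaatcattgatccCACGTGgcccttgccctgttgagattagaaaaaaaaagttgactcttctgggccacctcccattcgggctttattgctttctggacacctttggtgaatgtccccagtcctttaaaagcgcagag
Aqp12: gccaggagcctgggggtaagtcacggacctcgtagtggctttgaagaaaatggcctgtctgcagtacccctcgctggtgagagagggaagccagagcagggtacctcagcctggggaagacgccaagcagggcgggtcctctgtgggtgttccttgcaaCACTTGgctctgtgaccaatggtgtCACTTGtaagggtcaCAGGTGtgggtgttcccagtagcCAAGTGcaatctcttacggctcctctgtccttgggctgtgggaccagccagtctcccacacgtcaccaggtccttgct
The windows hold 1 E-box in Aqp1, 2 in Aqp8 and 4 in Aqp12, and 72.3% of all 32851 RefSeq promoter windows of this length hold at least 1. The second E-box of Aqp8 reads CACGTG, a form found in 7.15% of all windows and also in that of Kcnn4. A CCAAT box (CCAAT, both strands) stood in the window of Aqp12 and in 37.4% of all windows. A GC box (GGGCGG, both strands) stood in those of Aqp1, Aqp12 and Kcnn4, once each, and 4 times in that of Ano1, against 35.7% of all windows with at least 1. The motifs TATAAA (13.6% of all windows) and AAGGTCA (4.72%), searched on both strands, were not found in the windows of these 3 genes. G and C made up 62.7% of the bases in Aqp1, 52.0% in Aqp8 and 59.0% in Aqp12, with a median of 52.7% over all windows. Of the 7 genes, 5 had an entry in the promoter table. These matches are letters in a window and were not tested for binding.

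Aqp12 was the most abundant of the 7 genes. Its product is an aquaporin known from mouse as an intracellular protein of acinar cells. Aqp12 (ENSMUSG00000045091, protein-coding, chromosome 1 of GRCm38, 93006334 to 93012269) had 186 FPKM in OCaR1-/- mice and 199 FPKM in wild-type mice. It ranked 139 by wild-type level among the tested genes. Its log2 fold change of -0.10 was not called (q = 0.701 by the authors' deposited table). It lies 87.9 Mb from the targeted gene on the same chromosome.

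Aqp8 fell to 60.1% of its wild-type level. Aqp8 encodes a water channel of the apical acinar membrane. The gene (ENSMUSG00000030762, protein-coding, chromosome 7, 123462294 to 123468003) had 3.66 FPKM in OCaR1-/- mice and 6.09 FPKM in wild-type mice. The log2 fold change was -0.73, with p = 5e-05 and q = 0.00152 by the authors' deposited table. Of all genes called lower, 21.1% had a larger fall, and 1.82% of tested genes had a lower log2 fold change.

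Aqp1 went the other way and rose 1.37-fold. Aqp1 is the classic water channel of endothelium and red blood cells and is also found in pancreatic ducts. The gene (ENSMUSG00000004655, protein-coding, chromosome 6, 55336432 to 55348555) had 20.1 FPKM in OCaR1-/- mice and 14.7 FPKM in wild-type mice. Its log2 fold change was 0.45, with p = 5e-05 and q = 0.00152 by the authors' deposited table. This is small among called rises, of which 83.6% were larger. The ratio of Aqp1 to Aqp8 was 2.41 in wild type and 5.48 in the knockout, a 2.28-fold difference that was not tested as such.

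Aqp12 dominated the aquaporin RNA in both genotypes. With Aqp11, an intracellular aquaporin gene that is the other aquaporin of the table, the 4 genes summed to 210 FPKM in OCaR1-/- mice and 221 FPKM in wild-type mice. Aqp12 made up 88.4% of the sum in the knockout and 90.0% in wild type. The share of Aqp1 was 9.55% in the knockout and 6.62% in wild type, and that of Aqp8 was 1.74% and 2.75% in the same order.

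**Figure D1:**
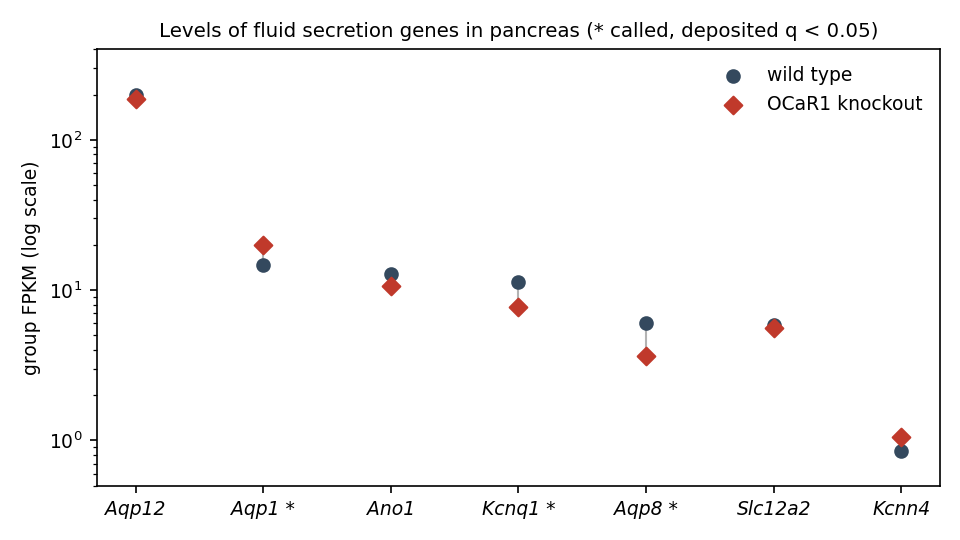
Group FPKM (log axis) of the 7 genes in wild type (circles) and OCaR1-/- pancreas (diamonds), ordered by wild-type level; each point is the authors' value for 3 mice, so there are no error bars. Aqp12 stands highest in both genotypes (199 FPKM in wild type and 186 FPKM in the knockout). Aqp1 is higher in the knockout (20.1 against 14.7 FPKM), and Kcnq1 and Aqp8 are lower.

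Ano1 encodes the calcium-activated chloride channel of the apical acinar membrane. It (ENSMUSG00000031075, protein-coding, chromosome 7, 144588549 to 144751974) had 10.6 FPKM in OCaR1-/- mice and 12.9 FPKM in wild-type mice. The log2 fold change of -0.27 was not called (p = 0.0890 and q = 0.398 by the authors' deposited table). Ano1 is also a marker of interstitial cells of Cajal. Kit, another marker of these cells, had 3.17 FPKM in OCaR1-/- mice and 1.99 FPKM in wild-type mice and was not called.

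Slc12a2 encodes the sodium-potassium-chloride cotransporter NKCC1, which loads chloride at the basolateral membrane. It (ENSMUSG00000024597, protein-coding, chromosome 18, 57878678 to 57946821) had 5.57 FPKM in OCaR1-/- mice and 5.81 FPKM in wild-type mice. The log2 fold change was -0.06 without a call (q = 0.858 by the authors' deposited table), and it turned to 0.03 when centred on the acinar marker genes. With no spread between mice, no interval can be set on this fold change.

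Kcnq1 fell to 68.4% of its wild-type level. It encodes a voltage-gated potassium channel of the basolateral membrane of epithelia. The gene (ENSMUSG00000009545, protein-coding, chromosome 7, 143106362 to 143427042) had 7.75 FPKM in OCaR1-/- mice and 11.3 FPKM in wild-type mice. Its log2 fold change was -0.55, with p = 5e-05 and q = 0.00152 by the authors' deposited table, and 44.8% of genes called lower had a larger fall. GENCODE release M21 places 12 other genes within its interval, 4 of them on the opposite strand, among them the long noncoding RNA gene Kcnq1ot1, which was not analysed here. Of the 4093 exonic bases of Kcnq1, 121 (2.96%) are shared with exons of these genes. Whether the authors' counting used strand is not given in the sources used here, so reads from those bases cannot be told apart.

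Kcnn4, the gene of an intermediate-conductance potassium channel opened by calcium, had the lowest level of the 7. It (ENSMUSG00000054342, protein-coding, chromosome 7, 24370263 to 24385209) had 1.05 FPKM in OCaR1-/- mice and 0.853 FPKM in wild-type mice, and only 2.42% of tested genes had a lower wild-type level. Its log2 fold change was 0.31 without a call (p = 0.130 and q = 0.482 by the authors' deposited table). The ratio of Kcnq1 to Kcnn4 was 13.3 in wild type and 7.36 in the knockout. Every gene analysed reaches at least 1.00006 FPKM in a genotype, and Kcnn4 does so in the knockout alone. The sign of its fold change was therefore set by that limit, which also bears on the ratio. Of the 2 potassium channel genes Kcnq1 alone was called, and the difference between them was not tested.

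**Figure D2:**
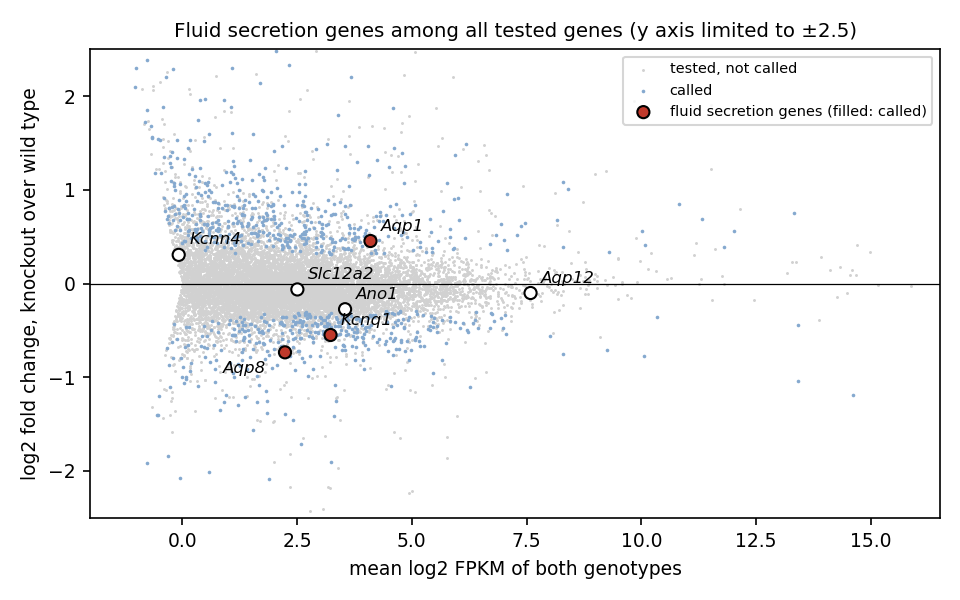
Log2 fold change (knockout over wild type) against mean log2 FPKM for the tested genes with a fold change; grey points were not called, blue points were called, and large points are the 7 genes (filled where called). Aqp8 (-0.73) and Kcnq1 (-0.55) lie below 0 and Aqp1 (0.45) above it, while Aqp12 stands far to the right near 0 (-0.10).

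The order of wild-type levels was Aqp12, Aqp1, Ano1, Kcnq1, Aqp8, Slc12a2 and Kcnn4. In the knockout Slc12a2 stood above Aqp8. Whether neighbours in this order differ beyond the spread between mice cannot be said, since the table carries none. None of the 7 intervals is shared with another row of the table, so no split of reads with another listed gene arises from that. By GENCODE, exonic bases shared with another gene were found in Kcnq1 and in none of the other 6 genes. Of the 7 genes, 4 lie on chromosome 7.

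The calls held when q was set at 0.01 or 0.1. These cuts could not change them, since the called genes have q = 0.00152 and the others at least 0.398 by the authors' deposited table. The deposited p of 5e-05 is the smallest in the table and is shared by 394 genes, so the 3 called genes cannot be ranked by it. The deposited Cuffdiff statistic of these genes (knockout over wild type) was 1.83 for Aqp1, -1.97 for Aqp8 and -1.63 for Kcnq1. Read as normal z values these would give unadjusted two-sided p-values of 0.0675, 0.0483 and 0.103, and after adjustment 0 of the 7 genes would be called, against 65 genes in the whole table in place of 866. How the deposited p was obtained from the statistic is not given in the sources used here.

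**Figure D3:**
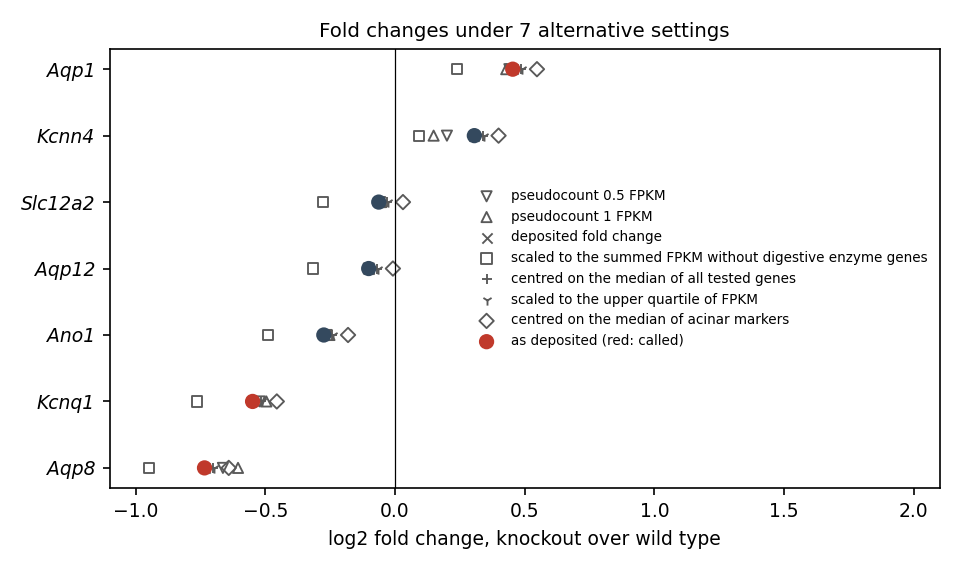
Log2 fold change (knockout over wild type) of the 7 genes as deposited (filled circles, red where called) and under 7 alternative settings (open or line symbols, named in the key). Aqp1 stays above 0 and Aqp8 and Kcnq1 stay below 0 in every setting, and these settings shift values too little to change that. Slc12a2 crosses 0 when centred on acinar markers.

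Related genes of ion and water transport were taken as 7 lists of 143 genes, of which 72 were tested. By the authors' deposited table, 4 of the 72 rose and 5 fell, or 12.5% called. Over all tested genes the share was 7.54%, with 4.20% higher and 3.35% lower, and the list counts below stand beside these shares. The median log2 fold change of the 72 genes was 0.02. The aquaporin gene Aqp11 fell 2.00-fold, from 1.42 to 0.710 FPKM (q = 0.00283 by the authors' deposited table). With a pseudocount of 1 FPKM the fall was 1.41-fold. Aqp11 was the only tested gene of its list of 9. It reaches the limit given above for Kcnn4 in wild type alone, so the sign of its fold change was set by that limit.

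Of 11 tested genes of other chloride and anion channels, 1 rose and 1 fell, with a list median of 0.07, or -0.14 when scaled without the digestive enzyme genes and -0.08 with at least 5 FPKM. Both calls were in genes of the chloride intracellular channel family. Clic1 rose 1.30-fold, from 9.99 to 13.0 FPKM (q = 0.0243 by the authors' deposited table), and Clic4 fell 1.28-fold, from 19.6 to 15.4 FPKM (q = 0.00816). Ano6, a scramblase and ion channel gene of the anoctamin family, had 4.70 FPKM in OCaR1-/- mice and 4.07 FPKM in wild-type mice without a call. Lrrc8d, a subunit gene of volume-regulated anion channels, had 7.74 and 9.51 FPKM in that order, also without a call and in an interval shared with another gene.

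Anion and proton exchangers held no calls. Of 8 tested genes, Cuffdiff called 0 (1 had an unadjusted p under 0.05), and the median was 0.00333 (-0.21 when scaled without the digestive enzyme genes). Slc26a6, the apical chloride-bicarbonate exchanger gene of ducts and acini, had 15.7 FPKM in OCaR1-/- mice and 15.2 FPKM in wild-type mice (q = 0.969 by the authors' deposited table). This gene was chosen after its values were seen. Slc4a2, a basolateral anion exchanger gene with the highest level of the list, had 17.3 and 17.7 FPKM in that order, and shares its interval with another gene. The largest difference was in Slc4a1, the anion exchanger gene of red blood cells (and a marker of the red cell list), with 1.37 FPKM in OCaR1-/- mice and 0.421 FPKM in wild-type mice (q = 0.0859 by the authors' deposited table). Slc4a3 (log2 fold change -0.33), Slc26a11 (-0.28) and Slc26a2 (-0.13), further exchanger and anion transporter genes, were not called.

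Carbonic anhydrases hydrate carbon dioxide to bicarbonate. Of 6 tested genes 1 rose and 1 fell, with a median of 0.41, or 0.195 when scaled without the digestive enzyme genes. None of them reached 5 FPKM. The mitochondrial Car5b rose 1.55-fold, from 1.40 to 2.16 FPKM (q = 0.00152 by the authors' deposited table). Car8, which lacks catalytic activity and binds the inositol trisphosphate receptor, fell 1.54-fold, from 1.07 to 0.694 FPKM (q = 0.0124). Car2, the cytosolic enzyme of duct cells and red cells, had 1.39 FPKM in OCaR1-/- mice and 0.780 FPKM in wild-type mice and missed the threshold (q = 0.0533). The membrane-bound Car4 had the highest level of the list, with 3.49 and 3.06 FPKM, and was not called, nor was Car11 (1.02 and 0.653 FPKM). Every gene analysed reaches at least 1.00006 FPKM in a genotype. Car2 and Car11 do so in the knockout alone and Car8 in wild type alone. The signs of these fold changes, which enter the list median, were therefore set by that limit.

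The sodium pump supplies the gradient for all of these steps. Of 9 tested genes of its subunits and FXYD regulators 1 rose and none fell, with a median of 0.28, or 0.019 with at least 5 FPKM and 0.07 when scaled without the digestive enzyme genes. Fxyd5 rose 1.60-fold, from 5.19 to 8.28 FPKM (q = 0.0223 by the authors' deposited table), and shares its interval with another gene. Fxyd1 (15.3 FPKM in OCaR1-/- mice and 11.6 FPKM in wild-type mice) and Atp1b2 (1.31 and 1.08 FPKM in that order) were not called.

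Of 9 tested genes of other potassium channels and cation-chloride cotransporters 1 rose and 1 fell, with a median of 0.19, or -0.02 when scaled without the digestive enzyme genes and -0.11 with at least 5 FPKM. Slc12a8, a member of the cotransporter family of Slc12a2, fell 1.33-fold, from 25.4 to 19.1 FPKM (q = 0.00523 by the authors' deposited table). Kcnk6, a two-pore potassium channel gene, rose 1.30-fold, from 1.84 to 2.40 FPKM (q = 0.0358). Kcnmb2, a subunit gene of the large-conductance calcium-activated potassium channel, had 0.870 FPKM in OCaR1-/- mice and 1.79 FPKM in wild-type mice without a call (q = 0.177). Kcnk1 had 13.3 and 11.6 FPKM, also without a call.

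Receptors, kinases and scaffolds that control secretion held 1 call among 28 tested genes. Adcy9, an adenylyl cyclase gene, fell 1.36-fold, from 3.02 to 2.22 FPKM (q = 0.0139 by the authors' deposited table), and shares its interval with another gene. The list median was -0.12. Stk39, the kinase gene SPAK that acts on Slc12a2 and its relatives, had 14.7 FPKM in OCaR1-/- mice and 20.5 FPKM in wild-type mice without a call (q = 0.202). Vipr2, a receptor gene for vasoactive intestinal peptide, had 9.01 and 13.0 FPKM (q = 0.298). Slc9a3r1, a scaffold of apical transporters, had 13.5 and 11.0 FPKM (q = 0.0814). The stimulatory G protein gene Gnas had the highest level of the list, at 291 and 316 FPKM in a shared interval, and was not called.

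**Figure D4:**
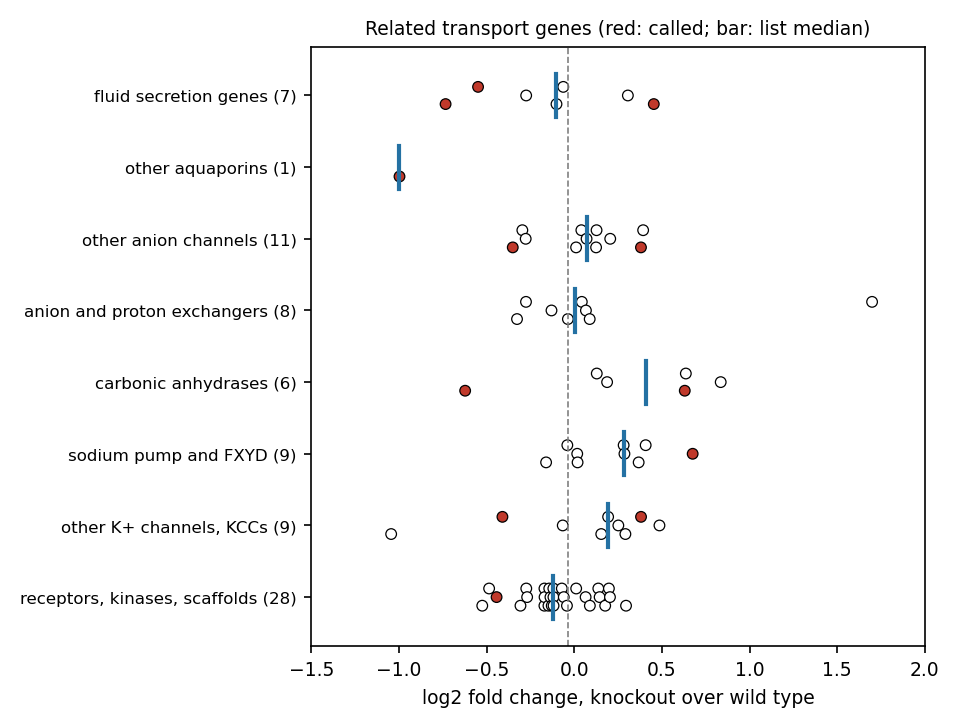
Log2 fold change (knockout over wild type) of the 7 genes and of the tested genes of 7 related lists (number in brackets); each point is a gene, red where called, the blue bar is the list median and the dashed line the median over all tested genes (-0.03). Calls lie on both sides of 0 in the lists of anion channels, carbonic anhydrases and potassium channels.

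The 7 genes are expressed in different cells, so markers of those cells are given here. In whole pancreas, fewer cells of a type and less RNA per cell cannot be told apart. Beside the marker counts below, 4.20% of all tested genes were called higher and 3.35% lower. Acinar genes were the most abundant of the lists: the 17 tested acinar markers summed to 229074 FPKM in OCaR1-/- mice and 251244 FPKM in wild-type mice. Of these, 6 fell and none rose by the authors' deposited table, with a median of -0.09. They included Ptf1a, the acinar transcription factor gene (27.2 and 40.9 FPKM), Gata4 (13.0 and 18.9 FPKM) and the granule protein gene Sycn (9338 and 12703 FPKM, shared interval). The largest falls were those of the elastase gene Cela1 (log2 fold change -1.19) and of pancreatic lipase, Pnlip (-1.04). The 17 markers ranged from -1.19 to 0.41, a range that holds most tested genes. Aqp8 (-0.73) lay below all of these markers but Cela1 and Pnlip, and Aqp12 (-0.10) lay near their median. The part of acinar cells in these values was not tested.

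Some endothelial markers rose, as Aqp1 did. Of 14 tested, 5 rose and none fell by the authors' deposited table. The list median was 0.38, or 0.16 when scaled without the digestive enzyme genes. The 14 summed to 123 FPKM in OCaR1-/- mice and 96.3 FPKM in wild-type mice. The vascular genes Cdh5 (log2 fold change 0.58), Emcn (0.52) and Tie1 (0.52) were among the rises, and Kdr (-0.24), Cldn5 (-0.01) and Flt1 (0.01) were among the genes not called. Red cell markers had 2 rises among 6, the near-identical globin genes Hba-a1 (0.37) and Hba-a2 (0.38). That list had a median of 0.31, or 0.10 when scaled without the digestive enzyme genes. Its sum was 449 FPKM in OCaR1-/- mice and 384 FPKM in wild-type mice. Duct markers had 2 rises among 12, the transcription factor genes Sox9 (0.56) and Hhex (0.65), a median of 0.10 (-0.11 when scaled without the digestive enzyme genes) and a sum of 298 and 277 FPKM in that order, while the duct factor gene Onecut1 (2.59 and 3.40 FPKM, shared interval) was not called. Aqp1 rose by 0.45 on the same log2 scale, or 0.24 when scaled without the digestive enzyme genes. The part of each cell type in its rise was not tested.

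Of the smooth muscle genes 5 fell, and Kit, a Cajal cell marker, was not called. Of 8 tested genes of the joint list of smooth muscle and Cajal cell markers, these 5 fell and none rose by the authors' deposited table, with a median of -1.01, and their sum was 35.0 FPKM in OCaR1-/- mice and 69.9 FPKM in wild-type mice. Actg2, smooth muscle gamma actin, fell from 14.6 to 0.878 FPKM, Cnn1, calponin, from 3.43 to 0.307 FPKM, and Des, desmin, from 3.92 to 1.70 FPKM. Kit was not called and had the higher value in the knockout (3.17 and 1.99 FPKM, log2 fold change 0.67), as had Smtn, a smooth muscle gene (4.30 and 3.83 FPKM). Intestine and liver markers had 1 fall among 3, Alb (0.746 and 1.39 FPKM), with Vil1 (1.36 and 2.07 FPKM, shared interval) and Lgals4 (1.38 and 1.61 FPKM) not called. Alb also reaches the limit in wild type alone, so its sign was set in the same way. That list had a median of -0.61 and summed to 3.48 FPKM in OCaR1-/- mice and 5.07 FPKM in wild-type mice. The part of these tissues in the falls of Aqp8 and Kcnq1 was not tested.

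Most islet and macrophage markers rose. Of 17 islet markers 13 rose and none fell by the authors' deposited table (median 0.61, sum 4167 FPKM in OCaR1-/- mice and 2600 FPKM in wild-type mice), including G6pc2 (2.31-fold), Scg2 (1.67-fold) and Chga (1.67-fold). Of 12 macrophage markers 10 rose and none fell (median 0.78, sum 123 and 70.3 FPKM), including Mpeg1 (2.51-fold, or 1.59-fold with a pseudocount of 1 FPKM), Lyz2 (2.38-fold) and Emr1 (2.33-fold). Of 3 tested lymphocyte markers Igj rose (3.03-fold), and Cd79b (1.25 and 0.859 FPKM) and Tcf7 (0.821 and 1.61 FPKM, shared interval) were not called. Cd79b reaches the limit in the knockout alone and Tcf7 in wild type alone, so these signs were also set by it. The list had a median of 0.54 and summed to 7.10 and 4.13 FPKM. Kcnn4 is a channel gene of lymphocytes and red cells as well as of epithelia, and their part in its value was not tested. None of the tested markers was listed at 0 in either genotype.

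**Figure D5:**
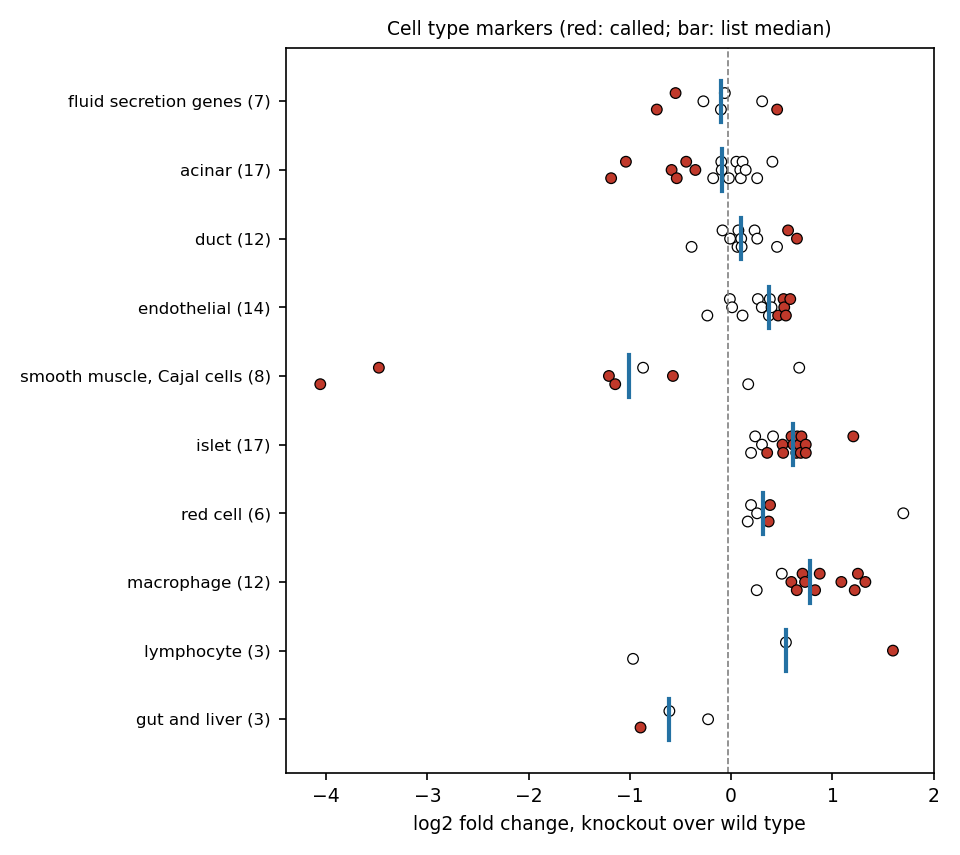
Log2 fold change (knockout over wild type) of the 7 genes and of markers of 9 cell types or tissues (number of tested genes in brackets); each point is a gene, red where called, the blue bar is the list median and the dashed line the median over all tested genes (-0.03). The medians of endothelial, islet and macrophage markers lie to the right (0.38, 0.61 and 0.78) and that of smooth muscle and Cajal cell markers to the left (-1.01), where 2 genes of the list, Kit and Smtn, lie right of 0.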

How the data were processed

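RNA of whole pancreas from 3 knockout and 3 wild-type mice was sequenced as single reads of 50 bases after poly(A) selection, per the labels' protocols. STAR 2.5.1b, Cufflinks 2.2.1, Cuffdiff and the build GRCm38 are named in the submitters' processing notes; no annotation release or scaling is given there. Per the file headers, the deposited table gives 1 FPKM value per genotype, a log2 fold change, a test statistic (a score), a p-value and a q-value. The columns of single samples numbered 0, so the planned test per mouse could not be made, and the authors' deposited q under 0.05 was used as the call. Every row reaches at least 1.00006 FPKM in a genotype, so less abundant genes were not analysed here. A gene under that level in 1 genotype was present through the other alone, so the direction of its fold change was set by this limit. The 538 rows marked as not tested were left out.

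Fold changes were computed as knockout over wild type from the deposited FPKM, with no pseudocount; 37 tested genes with a value under 0.01 FPKM got none. Starts were shifted by 1 to count from 1, and 3502 rows share their interval with another row. Genes, lists and markers were chosen with earlier results of these data known. Named genes are the 7 genes, Tmem63a, every called gene, up to 4 with the smallest p and the most abundant of each related list, and up to 3 of each marker list; a few of these are not reported here. Promoter windows and gene models came from RefSeq (GRCm38.p6) and GENCODE M21. Python 3.11.15, pandas 2.3.3 and scipy 1.17.1 were used, and the adjustment of p-values by Benjamini-Hochberg was tested on simulated data. Alternatives were other q thresholds, adjustment again over 11478 or 5826 genes, a filter at 5 FPKM, pseudocounts of 0.5 and 1 FPKM, 4 scalings, and, chosen after seeing the data, the statistic read as a z value.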

Additional observations from a re-analysis of the deposited data

How the results depend on the processing

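The number of the 7 genes called (1 higher and 2 lower) stayed the same at q under 0.01 or 0.1, with the deposited p adjusted again over 11478 tested genes or over the 5826 with at least 5 FPKM, and with that filter alone. These settings could hardly move it, since the called genes share the smallest deposited Cuffdiff p and the others have p of at least 0.089. With the deposited statistic read as a normal z value, an alternative chosen after seeing the data, 0 were called higher and 0 lower; the cause was not tested. With the filter at 5 FPKM, calls among other potassium channels and cotransporters went from 2 to 1 and those among regulators from 1 to 0, because the called genes Kcnk6 and Adcy9 lie below it. Leaving out marker genes changed no count of calls in the related lists. The same filter moved the list median of other chloride channels from 0.07 to -0.08, of the sodium pump from 0.28 to 0.019 and of other potassium channels from 0.19 to -0.11. Of 64 named genes, 34 are called and 0 of these changed sign under 7 alternatives. None could, since a pseudocount keeps the sign of a fold change. The scalings shifted values by less than the smallest called change among them (-0.35 in Clic4). Of the 30 not called, 7 changed sign under a scaling, among them Slc12a2 and Slc4a2 when centred on acinar markers, and Ano6, Car4, Kcnk1 and Slc26a6 when scaled without the digestive enzyme genes. A pseudocount of 1 FPKM lowered the fold of 3 called genes by over 1.5 times: Mpeg1 (to 1.59-fold), Actg2 (to 8.31-fold) and Cnn1 (to 3.39-fold). Among the genes not called it did so for 1, Slc4a1 (to 1.67-fold). Scaling without the digestive enzyme genes, which made up 54.0% of the summed FPKM in the knockout and 59.0% in wild type, shifted every log2 fold change by -0.21. Under it Aqp1 stood at 0.24, Aqp8 at -0.95 and Kcnq1 at -0.76. The other scalings shifted values by at most 0.09. No paired analysis was possible because the table has no column per mouse, and leaving out each mouse could not be run for the same reason. Depth is unknown, so no limit of detection was set for Kcnn4 at about 1 FPKM.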

Other observations

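The 7 genes were also set beside their neighbours on the chromosome. Their windows, reaching 1 Mb to either side, held 89 tested genes with each window counted alone. Of these 2 rose and 3 fell by the authors' deposited table, or 5.62%, against 7.54% of all tested genes. Kcnq1 and Ano1 lie 1.16 Mb apart, so their windows overlap and a gene in both is counted in each. Kcnq1 had 18 tested neighbours, and the 2 called ones differed from it in direction. Cdkn1c, a cell cycle inhibitor gene of the same imprinted domain, had 3.39 FPKM in OCaR1-/- mice and 2.16 FPKM in wild-type mice (1.57-fold higher, q = 0.00152 by the authors' deposited table). Ins2, an insulin gene, had 3231 and 1998 FPKM (1.62-fold higher, with the same q) and belongs to the islet markers, of which 13 of 17 rose. Beside Aqp1, the glycyl-tRNA synthetase gene Gars fell 1.38-fold (37.3 and 51.6 FPKM, q = 0.00152). Prrc1 near Slc12a2 fell 1.30-fold. Aqp8, Aqp12 and Ano1 had no called neighbour among 4, 20 and 10 tested genes. These neighbours were named after their values were seen.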
